A study of Mus musculus with 6 samples.

Results

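Genes of neutrophil granules, together with the S100 genes S100a8 and S100a9, were examined in marrow erythroblasts of mice without the miR-144/451 locus. All 10 listed genes were measured (Mpo, Elane, Prtn3, Ctsg, Ltf, Camp, Ngp, Lcn2, S100a8 and S100a9), of 18193 genes in all, and each had 1 probe set whose annotation named it alone. The rule took every such probe set by gene symbol and used no measured value. The genes themselves were chosen with earlier results of these data known. The probe sets of S100a8 (suffix _s_at) and Lcn2 (suffix _a_at) are of kinds that can match more than a single transcript. The groups were 3 miR-144/451 knockout mice (KO, titled 493, 548 and 551) and 3 wild-type mice (WT, titled 497, 504 and 550), with 1 Affymetrix Mouse Genome 430 2.0 array per mouse. The title numbers are taken to name mice, though the labels do not say so. The labels also give these numbers as a miRNA construct, whose meaning is unclear. Cells positive for Ter119 and CD71 with high forward scatter had been sorted from freshly isolated marrow, so that both groups held large cells carrying red cell surface proteins. Strain, age, litter and the construction of the deletion were not used here. The microRNAs were not analysed here, and the genotypes rest on the labels.

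Neutrophils store antimicrobial proteins in granules that are filled in order while the cell matures. Azurophil granules are filled in promyelocytes with myeloperoxidase and serine proteases, and specific granules in later precursors with lactoferrin, cathelicidin and related proteins. S100A8 and S100A9 form calprotectin, a calcium- and zinc-binding complex that fills the neutrophil cytosol. In marrow these transcripts mark the granulocyte lineage, which lies outside the red cell lineage that the sort selected.

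The promoters of the 4 azurophil genes are shown because these genes had the largest differences between genotypes and shared KO 493 as their lowest array. That of Ngp is shown as 1 specific granule gene, and the matches of the others differed from it. Each is the stretch of 250 bases before the gene's start in RefSeq, build GRCm38.p6, 5′ to 3′ on the gene's strand. Capitals mark matches on either strand to GAGGAA, the core bound by the myeloid ETS factor PU.1, to TTNNGNAA, a pattern that covers many sites of C/EBP factors, and to TATAAA.
Elane (chr10:79886062-79886311, plus strand): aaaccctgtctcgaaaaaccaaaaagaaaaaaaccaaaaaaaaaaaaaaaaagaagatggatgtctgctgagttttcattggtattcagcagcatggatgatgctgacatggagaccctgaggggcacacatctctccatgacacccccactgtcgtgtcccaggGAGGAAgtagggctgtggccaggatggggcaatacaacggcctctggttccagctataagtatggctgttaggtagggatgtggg
Prtn3 (chr10:79879417-79879666, plus strand): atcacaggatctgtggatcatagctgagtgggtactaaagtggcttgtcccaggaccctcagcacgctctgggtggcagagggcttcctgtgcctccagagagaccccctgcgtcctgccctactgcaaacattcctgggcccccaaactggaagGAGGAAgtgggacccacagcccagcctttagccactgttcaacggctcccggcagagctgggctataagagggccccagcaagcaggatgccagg
Ctsg (chr14:56102575-56102824, minus strand): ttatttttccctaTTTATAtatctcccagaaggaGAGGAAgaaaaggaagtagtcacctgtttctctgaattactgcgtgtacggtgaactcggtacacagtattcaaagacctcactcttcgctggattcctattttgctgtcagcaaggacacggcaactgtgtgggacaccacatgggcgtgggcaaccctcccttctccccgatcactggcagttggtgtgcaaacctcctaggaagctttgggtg
Mpo (chr11:87793534-87793783, plus strand): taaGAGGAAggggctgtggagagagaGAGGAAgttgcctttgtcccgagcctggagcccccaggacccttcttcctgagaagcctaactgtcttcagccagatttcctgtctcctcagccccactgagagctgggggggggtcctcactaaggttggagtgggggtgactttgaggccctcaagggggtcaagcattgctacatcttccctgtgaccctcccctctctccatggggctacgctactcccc
Ngp (chr9:110419558-110419807, plus strand): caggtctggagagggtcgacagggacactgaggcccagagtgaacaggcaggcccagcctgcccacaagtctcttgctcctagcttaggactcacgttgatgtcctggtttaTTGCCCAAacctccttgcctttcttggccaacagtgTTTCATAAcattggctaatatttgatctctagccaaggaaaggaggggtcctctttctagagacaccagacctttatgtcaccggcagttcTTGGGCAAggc
RefSeq gave a promoter for all 10 genes. GAGGAA was found in 7 of them, all 4 azurophil genes and Ltf, Lcn2 and S100a8, against 23.3% of 32817 windows of the same length. It was absent from Ngp and Camp, and Camp had no match to any of the patterns. In Elane GAGGAA began 85 bases and in Prtn3 95 bases before the start. TTNNGNAA was found in 5 of the 10 (Ltf, Ngp, Lcn2, S100a8 and S100a9) and in 0 of the 4 azurophil genes, against 36.8% of all windows. TATAAA was found in Ctsg and S100a8, 2 of the 10, against 12.4% of all windows. These matches describe the letters only. In gene order Elane and Prtn3 were direct neighbours on chromosome 10, as were S100a8 and S100a9 on chromosome 3. Camp, Ngp and Ltf lay on chromosome 9 with 8 protein-coding genes between Camp and Ngp and 20 between Ngp and Ltf. Mpo lay on chromosome 11, Lcn2 on chromosome 2 and Ctsg on chromosome 14.

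The deposited values were intensities made by RMA (robust multi-array average), and they are given here as log2. Array medians on this scale were 5.62 to 5.68 in KO and 5.73 to 5.78 in WT. The 99th percentile of an array was 12.31 in KO and 12.33 to 12.35 in WT. The median KO minus WT difference over all 45037 probe sets was -0.04. The difference between the means of the array medians was larger, at -0.11. The actin 3′ minus 5′ signal, a measure of RNA length, was 1.82 to 1.86 in KO and 1.65 to 1.67 in WT. That of Gapdh was 1.0 to 1.05 in KO and 1.03 to 1.09 in WT. Erythroid markers were bright on every array. Tfrc, which encodes CD71, averaged 12.94 ± 0.01 in the KO arrays and 12.98 ± 0.02 in the WT arrays (SD, n = 3 each). Slc4a1, the band 3 anion exchanger, averaged 13.04 ± 0.03 in the KO arrays and 13.11 ± 0.01 in the WT arrays.

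All 10 genes had a lower mean in KO than in WT, although after centring each array on its median S100a8 and S100a9 were slightly higher in KO and 8 remained lower. A difference below 0 was seen in 56.4% of all probe sets as deposited and in 39.8% after that centring. The differences ran from -0.86 for Elane to -0.07 for S100a9 with a median of -0.29. None of the 10 was called by limma at an adjusted p under 0.05, where adjusted p ran from 0.195 to 0.715. Of all probe sets 0.355% were called in either direction and 0.171% as lower in KO. Unadjusted p was under 0.05 for 4 of the 10 (Ctsg, Elane, Prtn3 and Camp), against 12.2% of all probe sets in that direction. Limma with an intensity trend and robust prior also called 0 of the 10, where it called 1.83% of all probe sets as lower. Limma without the dim probe sets called 0 of the 10, against 1.93% of those tested. In 6 of the 10 genes all 3 KO values lay below all 3 WT values, against 15.3% of all probe sets. After median centring this held for 3 of the 10, against 8.38%. In such sorted samples fewer cells of a type and less RNA per cell cannot be told apart.

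**Figure D1:**
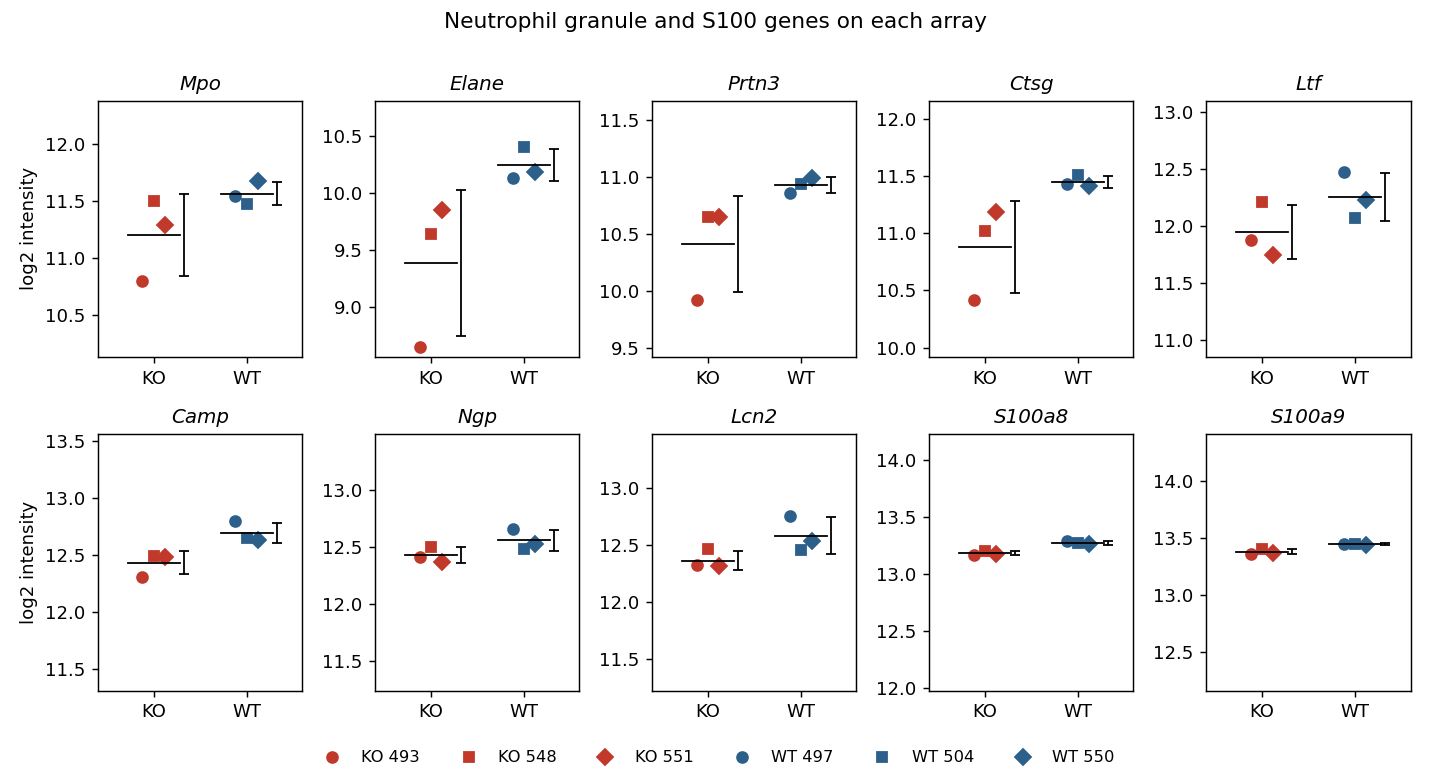
Log2 intensity of the 10 genes on each array, KO left and WT right in each panel, with the mean as a line and the SD as a bar beside it (n = 3 each). Every panel spans the same number of log2 units around its own mean. KO 493 is the lowest array for Mpo, Elane, Prtn3 and Ctsg, while S100a8 and S100a9 barely vary. The small deficit of these S100 genes turns over when arrays are centred on their medians, but not under quantile or cyclic loess normalization.

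The azurophil genes had the largest differences, and KO 493 was the lowest array for all 4. Elane, which encodes neutrophil elastase, was at 8.65, 9.64 and 9.85 in KO 493, 548 and 551, against 10.13, 10.40 and 10.18 in WT 497, 504 and 550. The groups did not overlap, and KO 493 lay further below the other KO mice than these lay below WT. The difference was -0.86 ± 0.30 (SE, adjusted p = 0.2), which is 44.8% lower in KO. Ctsg, which encodes the serine protease cathepsin G, was at 10.42, 11.02 and 11.19 in KO 493, 548 and 551, against 11.43, 11.51 and 11.42 in WT 497, 504 and 550. The SD was 0.40 in KO, against 0.05 in WT, where the values were close together. The groups did not overlap and differed by -0.58 ± 0.20 (SE, adjusted p = 0.195).

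Prtn3, which encodes proteinase 3, the target of autoantibodies in human vasculitis, was at 9.92, 10.65 and 10.65 in KO 493, 548 and 551. In WT 497, 504 and 550 it was at 10.86, 10.94 and 10.99. Again the groups did not overlap, with KO 493 apart from the rest, and the difference was -0.52 ± 0.21 (SE, adjusted p = 0.235). Mpo, which encodes myeloperoxidase, the enzyme that makes hypochlorous acid, was at 10.80, 11.50 and 11.29 in KO 493, 548 and 551, against 11.54, 11.47 and 11.67 in WT 497, 504 and 550. Here KO 548 lay above the lowest WT mouse, so the groups overlapped. The difference was -0.36 ± 0.19 (SE, adjusted p = 0.336).

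The sizes in this group rest on KO 493. Without that array the differences were -0.49 for Elane, -0.35 for Ctsg, -0.28 for Prtn3 and -0.16 for Mpo, with adjusted p from 0.229 to 0.583. The mean of the 4 genes relative to WT was -1.10 in KO 493, -0.34 in KO 548 and -0.30 in KO 551, and -0.06 to 0.04 in the WT arrays. The title numbers fall into a low range (KO 493, WT 497 and WT 504) and a high range (KO 548, KO 551 and WT 550). What the numbers stand for is not clear from the labels. Within the low range Elane differed by -1.62, Ctsg by -1.05, Prtn3 by -0.98 and Mpo by -0.70. Within the high range the same genes differed by -0.43, -0.31, -0.34 and -0.28. The sign was negative in both ranges, each of which has a genotype with a single mouse.

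**Figure D2:**
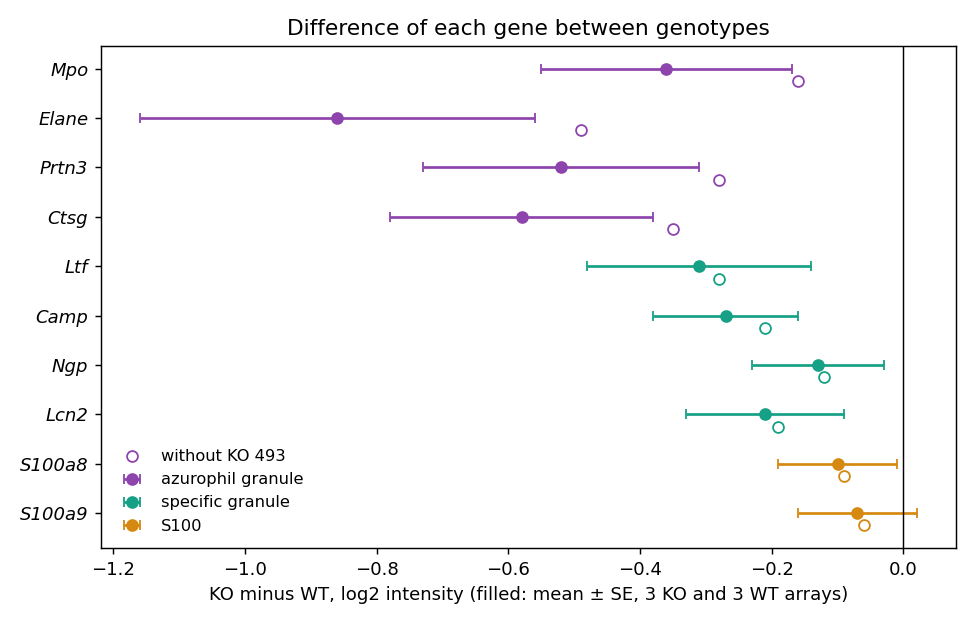
KO minus WT difference in log2 intensity for each gene, as the mean with limma's SE (filled symbols, 3 KO and 3 WT arrays) and without KO 493 (open symbols). Azurophil genes reach -0.86 and shrink most without KO 493. S100a8 and S100a9 are at -0.10 and -0.07. They change sign when arrays are centred on their medians, but not under quantile or cyclic loess normalization.

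The specific granule genes differed less, and WT 497 was the highest array for all 4. Camp, which encodes the antimicrobial peptide cathelicidin, was at 12.31, 12.49 and 12.48 in KO 493, 548 and 551, against 12.80, 12.65 and 12.63 in WT 497, 504 and 550. It was the only one of these 4 whose groups did not overlap, with a difference of -0.27 ± 0.11 (SE, adjusted p = 0.243). Ltf, which encodes the iron-binding protein lactoferrin, was at 11.88, 12.21 and 11.75 in KO 493, 548 and 551, against 12.48, 12.07 and 12.23 in WT 497, 504 and 550. The spread was similar in both groups, KO 548 lay above WT 504, and the difference was -0.31 ± 0.17 (SE, adjusted p = 0.345).

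Lcn2, which encodes lipocalin 2, a protein that binds bacterial iron carriers, was at 12.32, 12.46 and 12.31 in KO 493, 548 and 551, against 12.75, 12.45 and 12.53 in WT 497, 504 and 550. KO 548 and WT 504 were 0.01 apart in the order opposite to the means, and the difference was -0.21 ± 0.12 (SE, adjusted p = 0.369). Ngp, which encodes neutrophilic granule protein, a relative of the cystatins, was at 12.41, 12.50 and 12.37 in KO 493, 548 and 551, against 12.66, 12.48 and 12.53 in WT 497, 504 and 550. Its groups also overlapped through KO 548 and WT 504, with a difference of -0.13 ± 0.10 (SE, adjusted p = 0.528). Without WT 497 the differences of Ltf, Lcn2 and Ngp were -0.20, -0.13 and -0.08, and that of Camp -0.21.

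The S100 genes were nearly the same on all arrays. S100a9 was at 13.36, 13.40 and 13.37 in KO 493, 548 and 551, against 13.45, 13.45 and 13.44 in WT 497, 504 and 550. S100a8 was at 13.16, 13.20 and 13.17 in KO 493, 548 and 551, against 13.29, 13.27 and 13.26 in WT 497, 504 and 550. In both genes the groups did not overlap, by 0.04 for S100a9 and 0.06 for S100a8. The differences were -0.07 ± 0.09 for S100a9 and -0.10 ± 0.09 for S100a8 (SE, adjusted p = 0.715 and 0.599). Both SEs are several times the SDs within a group (0.01 to 0.02), because limma draws the variance toward that of all probe sets. Centring each array on its median turned them to 0.04 and 0.01, so their direction depends on the scaling. Repeated quantile normalization gave -0.09 for both genes. Cyclic loess normalization gave -0.08 for S100a9 and -0.11 for S100a8. The probe set of S100a9 was the brightest of the 10, with 6 of 45037 probe sets brighter over the 6 arrays, and it stood 0.58 log2 units below the brightest signal at the nearest. Whether so bright a signal still follows the amount of RNA was not tested.

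Across the 10 genes the order of brightness ran nearly opposite to the order of the differences. From the brightest the order was S100a9, S100a8, Camp, Ngp, Lcn2, Ltf, Mpo, Ctsg, Prtn3 and Elane. From the largest deficit in KO it was Elane, Ctsg, Prtn3, Mpo, Ltf, Camp, Lcn2, Ngp, S100a8 and S100a9. Intensities of different probe sets are not amounts of RNA, and the brightness of a probe set and the kind of granule go together in this list, so they cannot be told apart. Outside this list, other azurophil genes and other specific and gelatinase genes had the same median difference, -0.50. Among the 6200 probe sets at least as bright as that of Elane, the median difference was 0.00 and 49.0% were below 0. All 3 KO values lay below all 3 WT values in 19.4% of these.

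The azurophil genes were also compared with every other gene by array profile. Each gene's log2 values were centred on their mean over the 6 arrays, and the root mean square distance to the mean profile of the 4 genes was taken, a comparison chosen after the values were seen. Of 18189 other genes the nearest was Ms4a3, a membrane protein gene of granulocyte and monocyte progenitors, at 0.0952 log2 units, where the median gene was at 0.413. Ms4a3 was at 10.18, 11.13 and 11.28 in KO 493, 548 and 551, against 11.36, 11.52 and 11.39 in WT 497, 504 and 550. Its groups did not overlap, KO 493 was apart, and the difference was -0.56 ± 0.28 (SE, adjusted p = 0.323). Ms4a3 was picked for its nearness to this profile, so its low value in KO 493 is not a separate finding. Cst7, which encodes cystatin F, an inhibitor of the proteases that activate granule enzymes, came 9th, and Gfi1, a transcription repressor needed for neutrophil formation, 19th. The ranks of the other genes of the same lists were spread widely. Of the remaining azurophil genes Serpinb1a came 430th, Srgn 1844th, Lyz2 4634th and Ctsc 9849th. Of the remaining granulocyte factors Cebpb came 700th, Myb 1685th, Cebpd 5689th, Spi1 8519th, Cebpa 11345th, Irf8 16056th and Runx1 17097th. Genes of the further lists ran from S100a1 at 31st to Cd3e at 18037th. The genes from the second to the eighth were Tfap2c, 4930517E11Rik, Mtmr7, Gm15510, Vmn1r47, Tacc2 and 4632428C04Rik, most of them dim (under 5.0) on most arrays. The members' own distances were 0.0400 for Prtn3, 0.0548 for Ctsg, 0.158 for Mpo and 0.192 for Elane. The specific granule gene Camp came 956th.

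**Figure D3:**
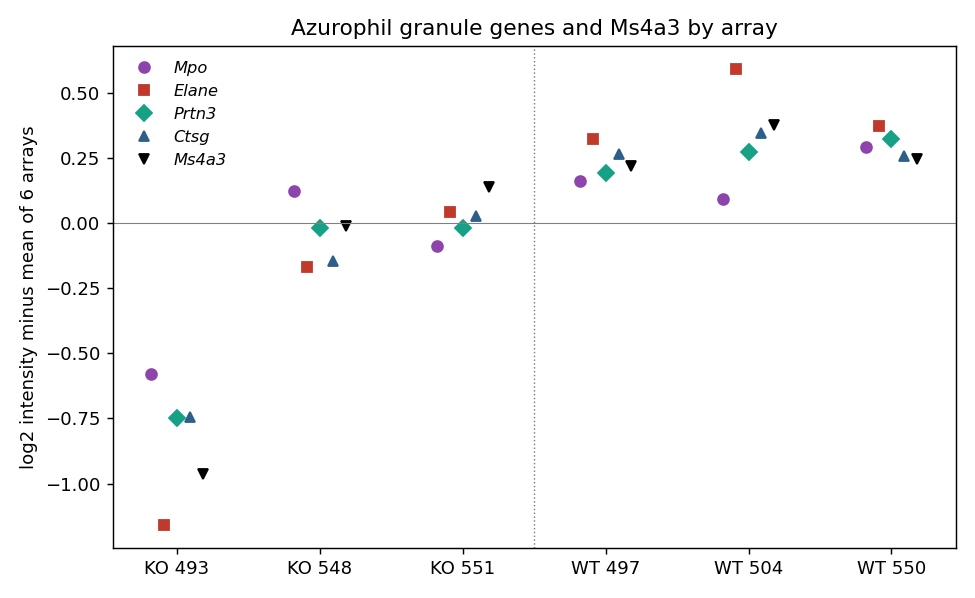
Log2 intensity minus the mean of the 6 arrays for the azurophil genes and Ms4a3, by array, KO left and WT right. All 5 genes are lowest in KO 493, and the WT arrays lie above 0 for each of them. Ms4a3 was picked for its nearness to the mean profile of the azurophil genes.

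By the profile of all 10 genes together, the nearest genes outside the lists were Napb, Pcnx2, Arrdc5, Ighmbp2 and Macc1, at 0.0388 to 0.0418 log2 units over the 6 arrays. These were picked for their nearness, so their low values in KO are not a separate finding. Pcnx2 and Macc1 lay under the 25th percentile of every array, and Arrdc5 under every array median. Napb and Ighmbp2 were taken by the brightest of 6 and 4 probe sets. The median gene lay at 0.266. Camp, the nearest of the members, lay at 0.0796 from their mean profile and 69 other genes lay nearer. Elane lay farthest, at 0.38, with 14813 genes nearer, and the other members at 0.11 to 0.181.

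Most other neutrophil genes measured had negative differences, and limma called none of those named here. Of 6 other azurophil genes measured, 6 had a negative difference (median -0.50) and 4 an unadjusted p under 0.05. These included Cst7 (-0.66 ± 0.18, SE) and Lyz2, which encodes lysozyme (-0.37 ± 0.13). All 10 other genes of specific and gelatinase granules had a negative difference (median -0.50). Among them were Fcnb, which encodes a ficolin (-0.91 ± 0.32), Hp, which encodes haptoglobin (-0.53 ± 0.19), and the chitinase-like Chil3 (-0.27 ± 0.12). Each gene was counted by its brightest probe set, and the 3 probe sets of Itgb2l ran from -0.53 to 0.61. Fcnb was at 8.49, 9.37 and 9.80 in KO 493, 548 and 551, against 10.33, 10.12 and 9.94 in WT 497, 504 and 550, with KO 493 lowest as for the azurophil genes. The 10 neutrophil surface genes all had a negative difference (median -0.51). They included the activating receptor Trem1 (-0.66 ± 0.15), the integrin chain Itgb2 (-0.55 ± 0.20) and the chemokine receptor Cxcr4 (-0.22 ± 0.10). The 2 probe sets of Trem1 ran from -0.66 to -0.24. Of 5 genes of the NADPH oxidase, which makes superoxide, 4 had a negative difference (median -0.46), with Cyba at -0.60 ± 0.15, Ncf1 at -0.72 ± 0.23 and Ncf4 at 0.14 ± 0.30.

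Of 8 transcription factors listed for the granulocyte lineage, not all of them specific to it, 7 had a negative difference (median -0.59). Gfi1 was at -0.67 ± 0.14, Cebpb at -0.55 ± 0.16 and Myb at -0.30 ± 0.10 (SE). The probe sets of Cebpb ran from -0.55 to -0.23 and those of Myb from -0.73 to -0.28. Cebpa, a factor required for granulocyte formation, was at -0.73 ± 0.21 and Spi1, which encodes PU.1, at -0.62 ± 0.24; they are named for the motifs above, after their values were seen. Of 11 other S100 genes 7 had a negative difference (median -0.14), with S100a6 at -0.64 ± 0.16 and S100a10 at -0.74 ± 0.22. The probe sets of S100a10 ran from -0.91 to -0.17, those of S100b from -0.14 to 0.34 and those of S100a16 from -0.31 to 0.02. Among 7 receptors and co-receptors that bind these proteins or bacterial products, all had a negative difference (median -0.39). The probe sets of Ager ran from -0.10 to 0.02. Slc22a17, a receptor for lipocalin 2, was at 5.61, 5.83 and 5.85 in KO 493, 548 and 551, against 6.42, 6.38 and 6.44 in WT 497, 504 and 550. It had the smallest adjusted p of the lists, 0.0687, with a difference of -0.65 ± 0.11. Cd14, a co-receptor for lipopolysaccharide, was at -1.27 ± 0.40 and Cd36, a scavenger receptor, at -0.29 ± 0.18. The protease inhibitors went both ways, with Slpi, the secretory leukocyte protease inhibitor, at -0.52 ± 0.12, Serpinb6a at 0.56 ± 0.16 and Serpinb6b at -0.07 ± 0.14 (4 measured, median 0.04). Over these lists and the markers of other cells, limma called 0 of 108 genes. An unadjusted p under 0.05 came with lower values in KO for 43 and with higher for 2 (Serpinb6a and Runx1). Runx1, a transcription factor of blood stem cells, was named after its value was seen, and its 6 probe sets ran from -0.21 to 0.43. The intensity trend called 7, all lower in KO: Cyba, Myb, S100a6, Slc22a17, Slpi, Epx and Cd34. Of all probe sets 12.2% had an unadjusted p under 0.05 with lower values in KO, and the trend called 1.83% as lower. The lists were chosen with earlier results of these data known.

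Markers of most other blood cells had negative differences on the same arrays, and their part in the results above was not tested. Monocyte and macrophage markers had a negative difference in 9 of 9 genes (median -0.49). Their summed intensity was 8808 to 9594 in KO and 11296 to 13161 in WT. Eosinophil, basophil and mast cell markers were negative in 7 of 7 (median -0.74), with sums of 2572 to 2947 in KO and 3633 to 6246 in WT. B lineage markers were negative in 5 of 6 (median -0.58), with sums of 2559 to 3565 in KO and 3876 to 6643 in WT. T and NK markers were negative in 6 of 6 (median -0.62), with sums of 751 to 1094 in KO and 1365 to 1852 in WT. Only Nkg7, the brightest of these 6, had groups that did not overlap, and it weighs heavily in the sums. Progenitor markers were negative in 4 of 4 (median -0.33), with sums of 344 to 415 in KO and 490 to 659 in WT. Megakaryocyte and platelet markers were negative in 3 of 6 (median -0.01), with overlapping sums of 5784 to 6941 in KO and 6028 to 6364 in WT. Erythroid markers were negative in 8 of 9 (median -0.10), with sums of 50410 to 51699 in KO and 52936 to 55124 in WT. These values use the brightest probe set of each gene. The 3 probe sets of Slc4a1 ran from -0.41 to -0.07 and the 3 of Tfrc from -0.20 to -0.05. None of the 47 markers measured lay under the 25th percentile of the array on all 6 arrays.

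The arrays ranked differently in the lists. WT 497 was the highest array for 6 of 7 eosinophil, basophil and mast cell markers, 5 of 6 T and NK markers, 9 of 10 neutrophil surface genes and 9 of 10 other specific and gelatinase genes, and for 4 of 6 other azurophil genes, but for 0 of the 4 azurophil genes examined here. KO 493 was the lowest array for those 4, for 4 of 6 other azurophil genes, for 5 of 10 other specific and gelatinase genes, for 5 of 7 eosinophil, basophil and mast cell markers and for both S100a8 and S100a9. It was the lowest for 0 of 9 monocyte and macrophage markers. Among the named markers the eosinophil peroxidase gene Epx differed by -1.11 ± 0.26 (SE), the eosinophil granule gene Prg2 by -0.86 ± 0.23 and the mast cell carboxypeptidase gene Cpa3 by -0.74 ± 0.18. The macrophage genes Mpeg1, Csf1r and C1qb differed by -0.69 ± 0.19, -0.63 ± 0.18 and -0.19 ± 0.14. Igll1, a surrogate light chain gene of early B cells, differed by -0.54 ± 0.14, the B cell gene Ms4a1 by -1.03 ± 0.40 and Cd79b by -0.61 ± 0.26. The cytotoxic granule gene Nkg7 differed by -1.02 ± 0.28 and Gzma, a granzyme gene, by -0.62 ± 0.33. Nkg7 was at 8.36, 9.11 and 9.49 in KO 493, 548 and 551, against 9.95, 10.18 and 9.88 in WT 497, 504 and 550, an order of arrays like that of Elane. The progenitor genes Cd34 and Kit differed by -0.83 ± 0.17 and -0.51 ± 0.26, where the 2 probe sets of Kit ran from -0.51 to -0.10. The platelet genes Itga2b, Gp1bb and Ppbp differed by 0.24 ± 0.14, 0.17 ± 0.22 and 0.04 ± 0.11, and the erythroid genes Rhag, Alas2 and Slc4a1 by -0.14 ± 0.09, -0.13 ± 0.10 and -0.07 ± 0.09. None of these was called by limma (adjusted p = 0.0954 for Cd34 and 0.111 to 0.86 for the others).

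**Figure D4:**
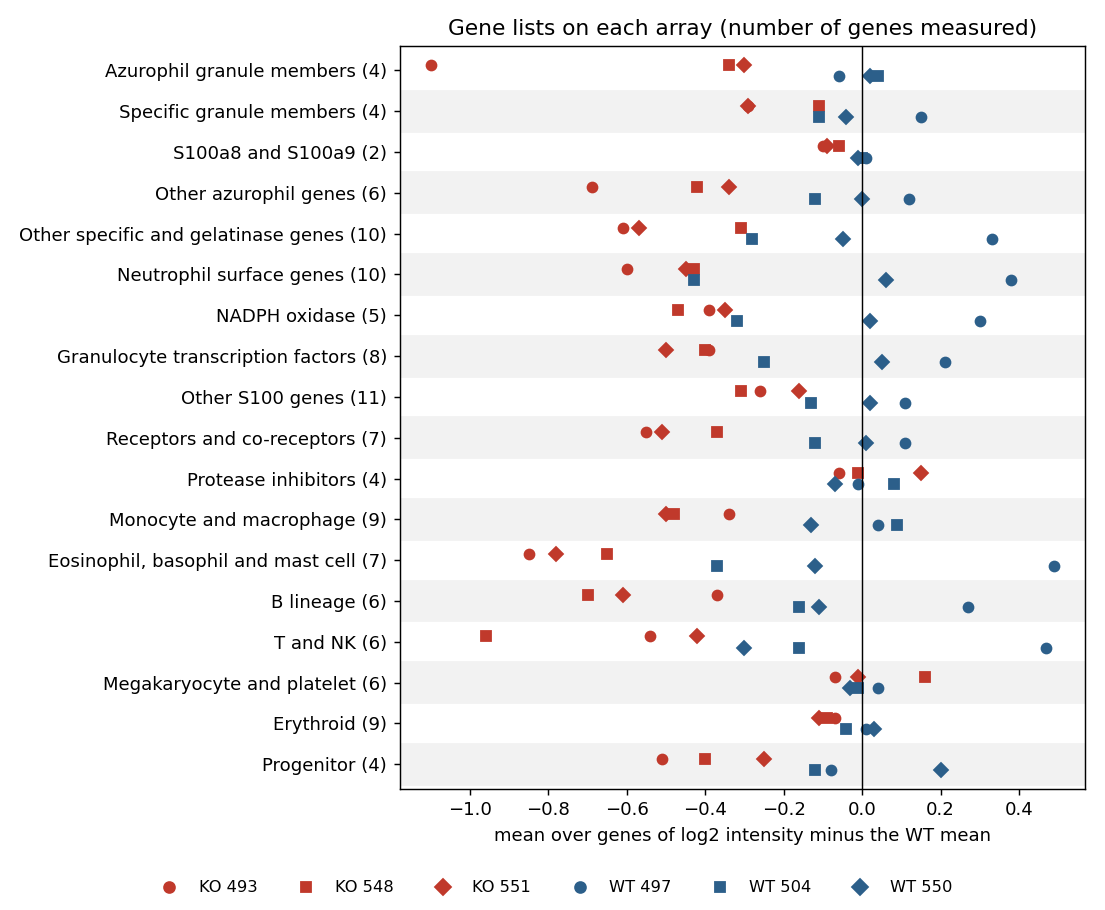
Mean over the genes of each list of log2 intensity minus the gene's WT mean, 1 point per array, with KO points above WT points in each row and the number of genes measured in brackets. The azurophil row has KO 493 at -1.10 and the other KO arrays at -0.34 and -0.30, whereas the S100a8 and S100a9, megakaryocyte and erythroid rows stay near 0. Each gene is counted by its brightest probe set, and other probe sets of some erythroid genes differed more.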

How the data were processed

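RNA of 6 sorted samples was measured on 1 array each. Per the submitters' processing notes the authors made the deposited intensity values by RMA, version not given in the sources used here. RMA normalizes arrays together, which can remove part of a shift of most transcripts. Of the deposited values 100% were powers of 2 with a 2-decimal exponent (within 0.0051 linear units), and these exponents were used as log2 values, with no pseudocount. Of 45101 probe sets 64 controls were left out. Gene names came from GEO's platform annotation, and other genes were represented by their brightest probe set.

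KO and WT were compared with limma 3.58.1 (R 4.3.3; lmFit, eBayes) over 45037 probe sets, with Benjamini-Hochberg adjustment and a threshold of 0.05; the procedure was tested on simulated data. SEs are limma's. P-values set the difference between the groups against limma's variance, which is drawn toward that of all probe sets. The number of arrays limits precision. Members and lists were chosen with earlier results of these data known. Listed genes without a probe set naming them alone were not analysed here. Besides the members, each list's called genes were named, otherwise its 2 smallest p and its brightest gene, plus the 5 genes nearest in profile. Alternatives were an intensity trend with robust prior, a filter at the median level, repeated quantile, cyclic loess and median scaling, a pseudocount of 16, a term for title number and leaving out each array.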

Additional observations from a re-analysis of the deposited data

How the results depend on the processing

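Each of the 10 differences kept its sign and its side of the threshold under every alternative run, except that centring each array on its median turned S100a8 to 0.01 and S100a9 to 0.04. The mean array median differed by -0.11 (KO minus WT), and the centring removes that shift. Leaving out single arrays gave -1.09 to -0.49 for Elane, -0.73 to -0.35 for Ctsg, -0.64 to -0.28 for Prtn3 and -0.51 to -0.16 for Mpo. The smallest adjusted p of any of the 10 genes under an alternative was 0.053, for Camp with the intensity trend. The number of genes whose groups did not overlap was 3 with median centring, against 8.38% of all probe sets. It was 6 to 10 when an array was left out, where fewer arrays make separation easier. The share of all probe sets was not counted for those fits, so these counts have no background. Of the 108 genes of the other lists, 7 were called lower with the intensity trend, 3 with the filter on dim probe sets and 2 with the pseudocount, and 0 in the other alternatives. As deposited, 83 of all probe sets passed as higher in KO and 77 as lower; over alternatives on all arrays 9 to 769 were called higher and 8 to 823 lower, the fewest with the term for title number and the most with the trend. Without 1 array 3 to 12 were called higher and 5 to 17 lower. With repeated quantile normalization the counts were 157 higher and 77 lower, and with median centring 320 higher and 91 lower. Each of the 10 genes has 1 probe set, so that averaging probe sets changes nothing. No paired analysis was possible because no title number occurs in both groups. Only 3 arrays a group limit what could be called.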
